A study of Homo sapiens with 16 samples.

Results

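The enzymes that write and remove DNA methylation, with their targeting partners, were followed at the RNA level in A101D and MeWo, 2 human melanoma cell lines. The 10 genes were taken by symbol: DNMT1, UHRF1, UHRF2 and HELLS for maintenance, DNMT3A and DNMT3B for new methylation, and TET1, TET2, TET3 and TDG for removal. Each symbol matched 1 of the 60676 Ensembl identifiers counted in both lines, and all 10 were among the 19247 genes that passed a filter on low counts. A101D, labelled as methionine dependent, and MeWo, described as rescued by homocysteine, gave 8 total RNA libraries each, numbered as replicates 1 to 8. Cells were grown with dialyzed serum in a methionine-free base medium with 150 µM cystine, to which either 200 µM methionine (control medium) or 200 µM homocysteine was added. No label says which medium a library had, nor that the libraries of a line came from separate cultures, so p-values measure the spread between these libraries, which may be technical. Each line is 1 culture line, and methionine dependence cannot be told apart from any other property of A101D or MeWo.

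In mammalian cells DNA methylation is copied after replication: UHRF1 binds hemimethylated CpG and brings DNMT1 to the new strand, and the chromatin remodeller HELLS opens nucleosomal DNA for that step. DNMT3A and DNMT3B methylate CpG sites that had no mark. The TET enzymes oxidise 5-methylcytosine, and the glycosylase TDG excises the more oxidised bases, which base excision repair replaces with cytosine. All methyltransferases of this pathway use S-adenosylmethionine, which is made from methionine. Copying is tied to replication, and so the 10 genes were set beside lists of genes for DNA replication and mitosis.

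Total counts per library ran from 28910881 to 38961862 (A101D) and from 31217443 to 38722489 (MeWo). In A101D, replicates 1-4 and 5-8 stood apart from each other, and no label names what separates these sets. The sets are therefore described by library, with no test within a line, while the labelled lines are tested. A further term tests whether the line difference changes between the sets. It equals the set difference in MeWo minus that in A101D, so where the MeWo sets differ little it restates the A101D step. The sets were chosen with earlier results of these data known, so p-values of this term are a description. The pigment cell markers summed to between 2458 and 3511 CPM (counts scaled to a common library size, with trimmed mean of M-values factors) in A101D and between 10011 and 11660 in MeWo. TYRP1 was under 1 CPM in A101D replicates 1-4. Epithelial markers summed to at most 4.47 CPM and leukocyte markers to at most 3.69 CPM in any library. The fibroblast list reached 1061 CPM in A101D against 85.3 in MeWo, and the endothelial list 142 CPM against 3.42, while DCN, COL3A1 and PECAM1 were under 1 CPM in A101D. Of the 6 fibroblast genes, 4 were higher and 2 lower in MeWo over all replicates, against 38.2% and 40.5% of all tested genes. The fibroblast sum thus does not give the direction of most of its genes. In A101D the fibroblast sum was lower in replicates 5-8 (574 to 640 CPM) than in 1-4 (937 to 1061), and the endothelial sum was higher (134 to 142 against 108 to 124). The median set difference over the fibroblast genes was upward there, at 0.48 on the log2 scale. The part of these genes in the results below was not tested.

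Proliferation genes were low in A101D replicates 5-8. All 24 genes of the S-phase list (replication licensing, fork and nucleotide genes) were lower there than in replicates 1-4 with no overlap, by a median of 4.11-fold, and all 20 mitosis genes were lower by a median of 3.75-fold. Among all tested genes 35.9% were lower without overlap. MKI67, the proliferation antigen, lay at 158 to 169 CPM in replicates 1-4 and at 55.7 to 61.6 in 5-8. PCNA, the sliding clamp of the replication fork that also binds DNMT1, lay at 118 to 128 and then at 39.7 to 42.6 CPM. The helicase subunit MCM2 was 5.53-fold lower in replicates 5-8 and the mitotic cyclin CCNB1 3.44-fold. None of the 4 overlapped between the sets. In MeWo all 24 S-phase genes had lower medians in replicates 5-8, by 0.02 to 0.34 on the log2 scale and a median of 1.14-fold, and 14 of them did not overlap, against 8.82% of all genes. The mitosis list differed there by a median of 1.01-fold, with 5 genes higher and 3 lower without overlap, against 6.71% and 8.82%. In bulk RNA, fewer cycling cells and less RNA per cell cannot be told apart.

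Among the maintenance genes, UHRF1 and HELLS were several-fold lower in A101D replicates 5-8, DNMT1 was lower by less, and UHRF2 was slightly higher. UHRF1 (ENSG00000276043, chromosome 19, 4903080 to 4962154, plus strand; positions from GENCODE v29 on GRCh38) had 97.8, 92.6, 102 and 98.4 CPM in A101D replicates 1 to 4. In replicates 5 to 8 it had 13.5, 15.8, 14.4 and 16.8 CPM, 6.50-fold lower by the medians. In MeWo it had 105 CPM in the lowest library, a median of 118 and 123 in the highest. MeWo thus lay above every A101D library, and the A101D sets did not overlap. The UHRF1 line difference was a log2 fold change (MeWo over A101D) of 0.29 ± 0.04 (SE) in replicates 1-4 and 2.90 ± 0.05 in 5-8, with adjusted p of 1.04e-07 and 2.72e-38 (limma-voom, Benjamini-Hochberg over all genes tested).

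HELLS (ENSG00000119969, chromosome 10, 94501434 to 94613905, plus strand) had 31.6, 36.4, 36.1 and 34.6 CPM in A101D replicates 1 to 4. It had 4.87, 5.18, 5.81 and 5.28 CPM in replicates 5 to 8, 6.70-fold lower. MeWo ranged from 48.2 to 55.0 CPM with a median of 51.8. As for UHRF1, the A101D sets did not overlap and no MeWo library lay within the A101D range. Its line difference was 0.65 ± 0.05 in replicates 1-4 (adjusted p = 8.15e-17, limma-voom) and 3.21 ± 0.06 in 5-8 (adjusted p = 1.02e-36). Of its exon bases 4.32% are shared with an unnamed gene on the same strand, so some reads there could belong to either.

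DNMT1 (ENSG00000130816, chromosome 19, 10133345 to 10231286, minus strand), the maintenance methyltransferase, was the most abundant of the 10 genes per length in every group. It had 354, 343, 340 and 345 CPM in A101D replicates 1 to 4, and 200, 210, 204 and 205 CPM in replicates 5 to 8, 1.68-fold lower. MeWo ranged from 398 to 453 CPM with a median of 436. The 3 ranges were separate, as for UHRF1, but the step within A101D was smaller than the S-phase median of 4.11-fold. The DNMT1 line difference was 0.36 ± 0.04 in replicates 1-4 (adjusted p = 2.83e-12, limma-voom) and 1.05 ± 0.04 in 5-8 (adjusted p = 5.29e-28). UHRF2 (ENSG00000147854, chromosome 9, 6413151 to 6507054, plus strand), the paralogue of UHRF1, took the other direction. It had 46.2, 47.4, 47.3 and 48.5 CPM in A101D replicates 1 to 4, and 49.0, 50.1, 48.8 and 50.6 CPM in 5 to 8. MeWo ranged from 51.2 to 61.4 CPM with a median of 56.3. The A101D step of 1.05-fold was small, and the sets overlapped when upper-quartile factors were used. The line difference of UHRF2 was 0.17 ± 0.04 in replicates 1-4 and 0.25 ± 0.04 in 5-8, and the difference between these did not pass the threshold (adjusted p = 0.278, limma-voom).

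**Figure D1:**
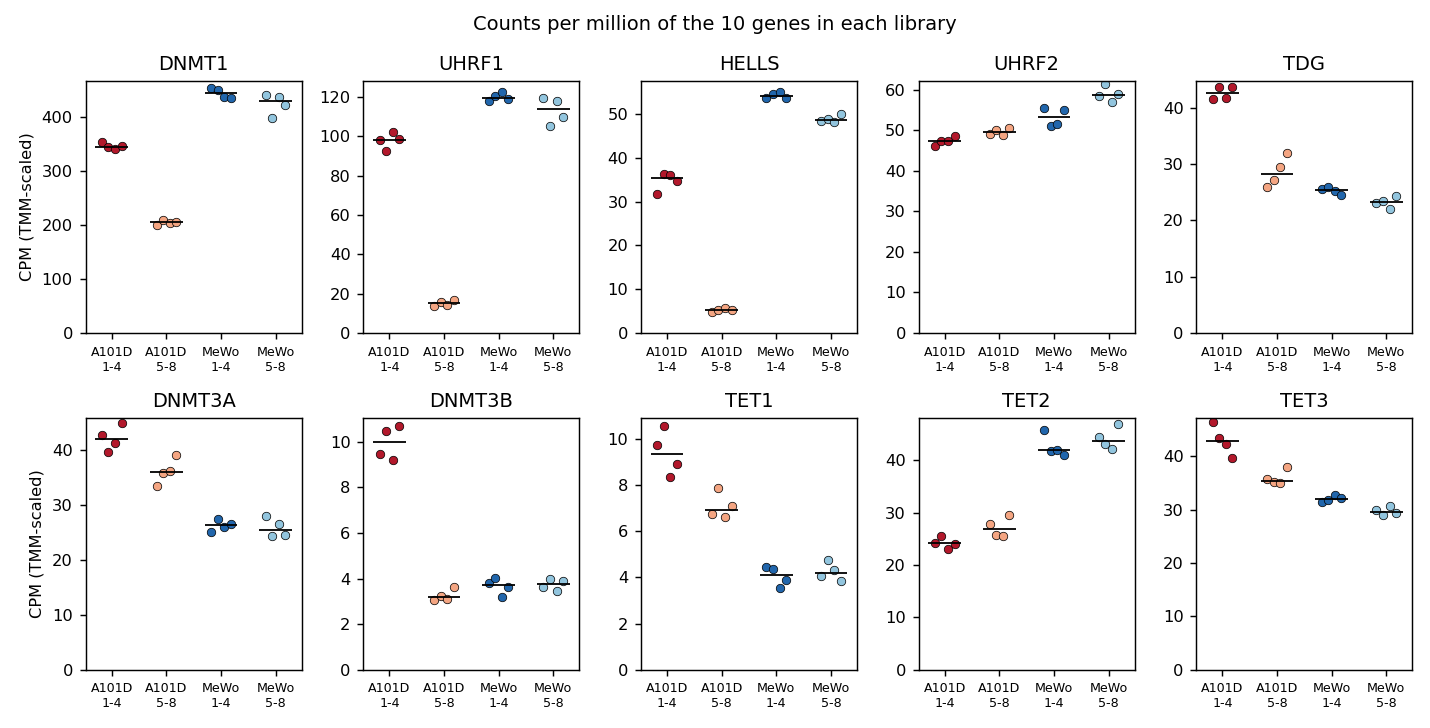
CPM (y axis, from 0, with its own scale in each panel) of the 10 genes in the 4 libraries of each line and replicate set (points), with the median as a line. UHRF1 and HELLS lie at 13.5 to 16.8 and 4.87 to 5.81 CPM in A101D replicates 5-8, below all other libraries, while DNMT3B is high in A101D replicates 1-4 alone, at 9.23 to 10.7 CPM.

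The promoters of these genes are shown for the letters bound by E2F factors, which drive genes of the G1 to S transition. The letters TTTCCCGC, TTTCGCGC, TTTGCCGC and TTTGGCGC were searched on both strands in the 250 bases before each RefSeq start (GRCh38.p14). They were settled after the promoters had been viewed, so the matches are a description. All 10 genes had at least 1 start, 21 in all, and UHRF1 and HELLS held a match. Of all 27305 genes with a start 3.40% held one, and of the S-phase and mitosis lists 10 of 21 and 3 of 16 genes with a start. When the window was extended by 50 bases past the start, DNMT1 also held a match, which begins 2 bases before its start and crosses it. In that 300-base window 3.99% of all genes had one, as did 13 of 21 S-phase genes and 3 of 16 mitosis genes. The match of UHRF1 nearest to a start begins 14 bases before it, another lies 160 bases before a second start, and those of HELLS begin 76 and 8 bases before its start. The other 7 genes held none in either window at the starts searched.
The matches are printed 5′ to 3′ on the gene's strand, with the E2F letters in capitals. The first is UHRF1 at chr19:4909476-4909505 on the plus strand.
UHRF1, first start: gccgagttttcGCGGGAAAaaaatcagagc
The next is UHRF1 at chr19:4909973-4910002 on the plus strand.
UHRF1, second start: cccgagcccgaTTTCGCGCgccctgagttc
The match of DNMT1 is at chr19:10194937-10194966 on the minus strand.
DNMT1: catcggtttccGCGCGAAAagccggggcgc
For HELLS the whole 250 bases at chr10:94545538-94545787 on the plus strand are shown, since both of its matches lie within them.
HELLS: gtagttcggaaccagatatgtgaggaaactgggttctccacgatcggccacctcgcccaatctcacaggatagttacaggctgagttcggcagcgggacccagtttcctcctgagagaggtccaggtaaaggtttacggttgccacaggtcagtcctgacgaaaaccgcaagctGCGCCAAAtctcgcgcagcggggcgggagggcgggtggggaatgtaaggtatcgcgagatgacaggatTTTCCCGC
The window of DNMT3B at chr20:32779602-32779851 on the plus strand is shown beside these. It belongs to the only DNMT3B start searched and lies inside the gene, which begins at 32762385 in GENCODE v29. The outer 5′ end of DNMT3B was therefore not searched, and the windows of UHRF1, HELLS and DNMT1 also lie inside their GENCODE spans. The DNMT3B window holds none of the letters. With 3 CpG dinucleotides it had the fewest of the 21 windows, against a median of 11 over all starts and 18 in the HELLS window.
DNMT3B: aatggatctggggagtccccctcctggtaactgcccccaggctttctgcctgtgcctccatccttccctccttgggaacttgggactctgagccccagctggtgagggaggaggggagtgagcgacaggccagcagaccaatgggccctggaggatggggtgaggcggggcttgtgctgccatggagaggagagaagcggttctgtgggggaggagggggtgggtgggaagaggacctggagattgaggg

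The pair of de novo methyltransferases behaved differently from each other. DNMT3B (ENSG00000088305, chromosome 20, 32762385 to 32809356, plus strand) had 9.48, 10.5, 9.23 and 10.7 CPM in A101D replicates 1 to 4. It had 3.06, 3.22, 3.12 and 3.64 CPM in replicates 5 to 8, 3.11-fold lower. MeWo had 3.21 CPM in the lowest library, a median of 3.73 and 4.05 in the highest. A101D replicates 1-4 were thus apart from the rest, while A101D replicates 5-8 overlapped MeWo. The line difference of DNMT3B was −1.44 ± 0.10 in replicates 1-4 (adjusted p = 1.68e-17, limma-voom) and 0.20 ± 0.11 in 5-8 (adjusted p = 0.077), and the difference between these was 1.64 ± 0.15 (adjusted p = 1.26e-12). The value in replicates 5-8 passed without A101D replicate 8 (0.25, adjusted p = 0.0398) and with upper-quartile factors (0.69, adjusted p = 1.22e-07), a scaling that raised the median of all genes there to 0.50. Over all replicates the line difference was −0.60 ± 0.30 (adjusted p = 0.0803), and it passed with the set as a covariate (−0.74, adjusted p = 0.00371).

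DNMT3A (ENSG00000119772, chromosome 2, 25227855 to 25342590, minus strand) was higher in A101D than in MeWo in both sets. It had 42.8, 39.5, 41.2 and 44.8 CPM in A101D replicates 1 to 4, and 33.4, 35.9, 36.1 and 39.1 CPM in 5 to 8. MeWo ranged from 24.3 to 28.0 CPM with a median of 26.2. The lines did not overlap, and the A101D sets, 1.17-fold apart, came close and overlapped with median-of-ratios factors and with total counts. The line difference was −0.68 ± 0.05 in replicates 1-4 and −0.49 ± 0.05 in 5-8 (adjusted p = 3.58e-15 and 4.41e-11, limma-voom). The difference between these was 0.19 ± 0.08 (adjusted p = 0.0328), and it was lost when any of A101D replicates 1, 4, 5 or 6 or MeWo replicates 1, 3, 5 or 7 was left out, at 0.15 to 0.19. With upper-quartile factors the DNMT3A line difference did not pass in replicates 5-8 (0.00194, adjusted p = 0.976, limma-voom) or over all replicates (−0.09, adjusted p = 0.229).

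Of the TET dioxygenases, TET1 and TET3 were higher in A101D and TET2 was higher in MeWo. TET2 (ENSG00000168769, chromosome 4, 105145875 to 105279816, plus strand) had 24.2, 25.6, 23.1 and 24.0 CPM in A101D replicates 1 to 4, and 27.9, 25.7, 25.6 and 29.6 CPM in 5 to 8. MeWo ranged from 40.9 to 46.9 CPM with a median of 42.6. Along with UHRF2 it was the gene that was higher in A101D replicates 5-8, by 1.11-fold, and these sets overlapped with upper-quartile factors. The TET2 line difference was 0.81 ± 0.05 in replicates 1-4 and 0.70 ± 0.05 in 5-8 (adjusted p = 9.01e-18 and 4.38e-16, limma-voom). TET1 (ENSG00000138336, chromosome 10, 68560656 to 68694482, plus strand) was the least abundant TET gene per length. It had 9.73, 10.6, 8.36 and 8.91 CPM in A101D replicates 1 to 4, 6.73, 7.86, 6.61 and 7.09 in 5 to 8, and 3.56 to 4.76 in MeWo (median 4.18). The 3 ranges were separate, with a step of 1.35-fold within A101D, and the A101D sets overlapped with total counts. Its line difference was −1.21 ± 0.10 in replicates 1-4 and −0.74 ± 0.10 in 5-8 (adjusted p = 1.78e-14 and 8.49e-09, limma-voom). TET3 (ENSG00000187605, chromosome 2, 73986404 to 74108176, plus strand) had 46.3, 43.4, 42.3 and 39.6 CPM in A101D replicates 1 to 4, 35.6, 35.1, 35.0 and 38.0 in 5 to 8, and 28.9 to 32.7 in MeWo (median 31.0). Its line difference was −0.42 ± 0.05 and −0.28 ± 0.05 (adjusted p = 1.20e-10 and 1.72e-06). With upper-quartile factors the direction of TET3 turned, to 0.15 over all replicates (adjusted p = 0.056) and to 0.22 in replicates 5-8, where it passed (adjusted p = 0.000237).

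TDG (ENSG00000139372, chromosome 12, 103965804 to 103988874, plus strand), which also has processed pseudogene copies whose reads could be shared with it, was lower in A101D replicates 5-8, as the proliferation genes were, but also lower in MeWo, where those genes were higher. It had 41.5, 43.6, 41.6 and 43.6 CPM in A101D replicates 1 to 4, and 25.98, 27.1, 29.5 and 32.0 CPM in 5 to 8, 1.51-fold lower. MeWo ranged from 21.98 to 25.96 CPM with a median of 24.4. A101D replicates 1-4 were far above the rest, and A101D replicate 5 was barely above the highest MeWo library. The TDG line difference was −0.75 ± 0.05 in replicates 1-4 and −0.30 ± 0.05 in 5-8 (adjusted p = 8.89e-17 and 3.11e-06, limma-voom). With upper-quartile factors the value in replicates 5-8 turned to 0.19 and passed in that direction (adjusted p = 0.00295).

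All 10 genes had non-overlapping sets in A101D, 8 lower and 2 higher in replicates 5-8, against 62.6% of all tested genes in either direction (35.9% lower, 26.6% higher). A step of at least 1.5-fold downward was found for UHRF1, HELLS, DNMT3B, DNMT1 and TDG, against 16% of all genes, and TDG was under it with median-of-ratios factors and with total counts. No gene changed direction in A101D under the scalings run, while the sets of DNMT3A and TET3 overlapped with median-of-ratios factors, those of DNMT3A, TET1 and TET3 with total counts, and those of UHRF2 and TET2 with upper-quartile factors. In MeWo none of the 10 reached 1.5-fold, against 0.504% of all genes lower and 0.665% higher, with log2 set differences from −0.15 (HELLS) to 0.14 (UHRF2). HELLS, TDG and TET3 were lower and UHRF2 higher without overlap in MeWo, against 15.5% of all genes (8.82% lower, 6.71% higher). Those of HELLS, TDG and TET3 overlapped with total counts, and those of TDG and UHRF2 with upper-quartile factors. The direction in MeWo flipped for DNMT1 and DNMT3A with total counts and for DNMT3B and TET1 with upper-quartile factors.

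**Figure D2:**
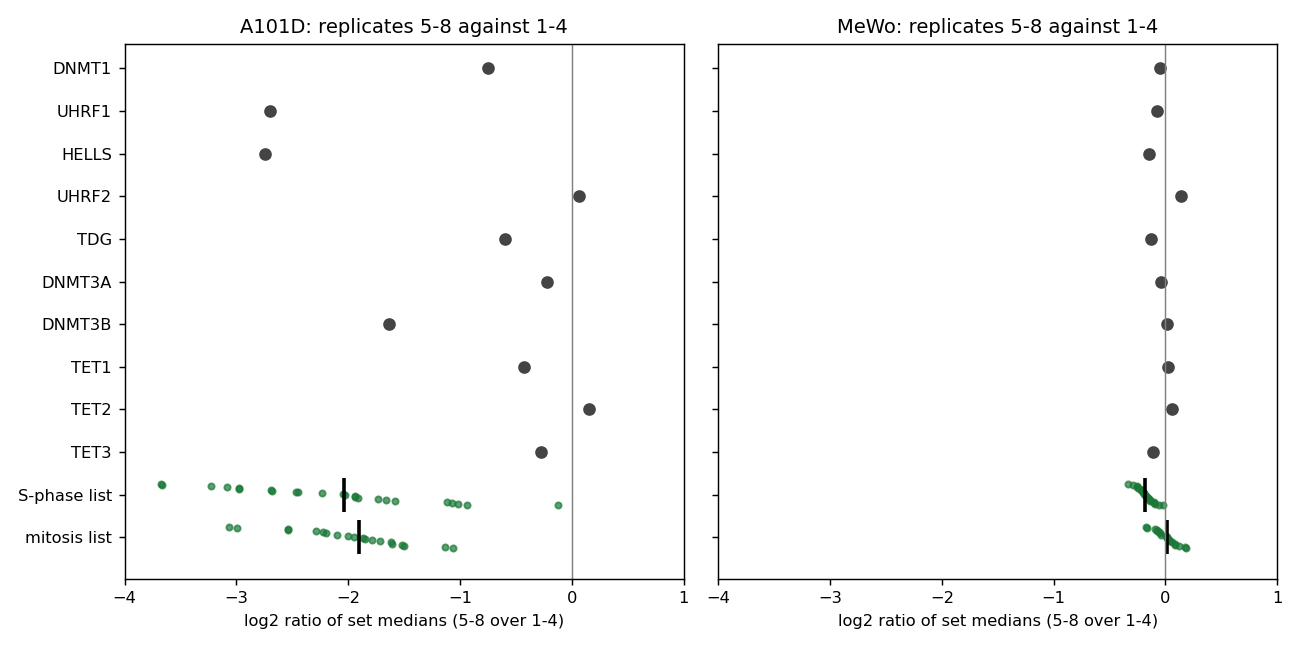
Log2 ratio of the median CPM in replicates 5-8 over that in 1-4 (x axis) in A101D (left) and MeWo (right), for the 10 genes (grey points) and each gene of the S-phase and mitosis lists (green points, with the list median as a bar). HELLS (−2.74) and UHRF1 (−2.70) lie below the S-phase median of −2.04 in A101D, DNMT3B (−1.64) and DNMT1 (−0.75) above it, and the 10 genes lie between −0.15 and 0.14 in MeWo.

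Between the lines over all replicates, DNMT1, UHRF1, UHRF2, TET2 and HELLS were higher in MeWo and DNMT3A, TET1, TET3 and TDG lower, with DNMT3B not past the threshold. The share past it among all tested genes was 78.7% (38.2% higher, 40.5% lower), so that 9 of 10 is near the background. The lines did not overlap over all replicates for 9 of the 10 genes, with DNMT3B the exception, against 56.8% of all genes (26% higher in MeWo, 30.8% lower). Within replicates 1-4 all 10 passed (5 higher, 5 lower), against 81.1% of genes (37.6% higher, 43.5% lower). Within replicates 5-8 the count was 5 higher and 4 lower, against 84.6% (42.2% higher, 42.4% lower). The line difference was more positive in replicates 5-8 for 7 of the 10 genes, against 30.6% of all genes, and more negative for none, against 21.5% (52.1% in either direction). The largest of these differences were 2.61 ± 0.07 for UHRF1 (adjusted p = 1.49e-29, limma-voom), 2.56 ± 0.09 for HELLS (9.54e-27) and 1.64 for DNMT3B. Those of DNMT1 (0.69 ± 0.05, adjusted p = 2.48e-15), TET1 (0.47 ± 0.14, 0.00522) and TDG (0.45 ± 0.08, 2.68e-06) were smaller. UHRF2, TET2 and TET3 did not pass (adjusted p = 0.278, 0.206 and 0.0657). TET2 passed with median-of-ratios factors (−0.19, adjusted p = 0.0277) and total counts (−0.22, adjusted p = 0.0112), and TET3 without A101D replicate 4 (0.19, 0.0225) or 8 (0.18, 0.0305).

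**Figure D3:**
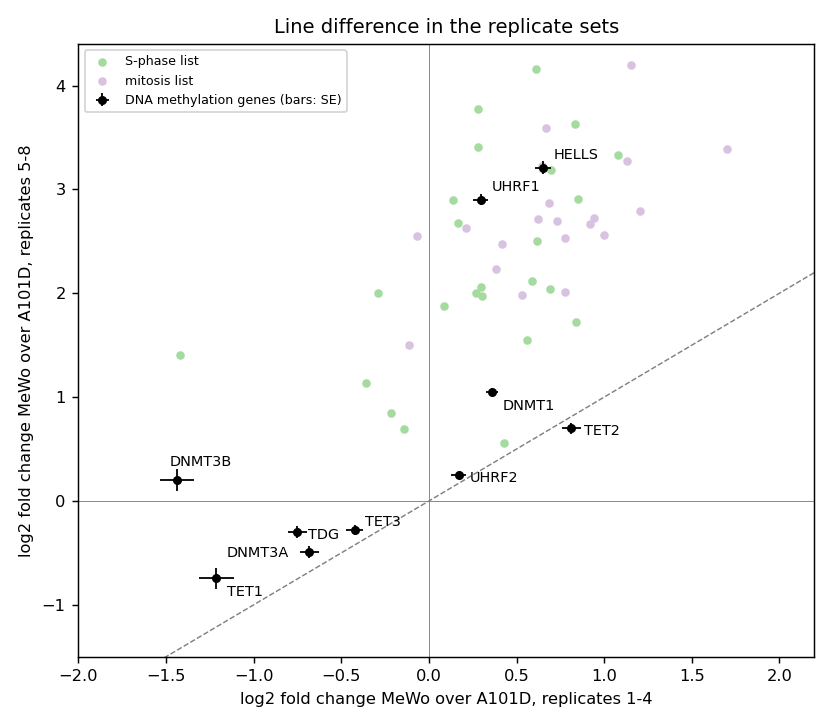
Log2 fold change of MeWo over A101D in replicates 1-4 (x axis) and 5-8 (y axis) for the 10 genes (black, bars are SE) and for the S-phase and mitosis lists (coloured), with the line of equal values dashed. UHRF1 and HELLS lie among the proliferation genes, at 2.90 and 3.21 on the y axis, and DNMT3B moves from −1.44 to 0.20. With upper-quartile factors TET3 is above 0 on both axes, and DNMT3A and TDG on the y axis.

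To see which genes followed proliferation over the whole series, each gene's centred log2 CPM was compared with the mean profile of the S-phase list by the root mean square difference, with no test. UHRF1 was the closest of the 10 at 0.264 and HELLS next at 0.384, and 0.608% and 1.54% of all tested genes were closer to the list. The median S-phase gene was at 0.387, and the median over all tested genes was 1.07. DNMT1 was at 0.568, with 5.30% of genes closer. TET2 (0.860), UHRF2 (0.953) and DNMT3B (0.975) came next, and TET3, TDG, DNMT3A and TET1 lay between 1.05 and 1.29. The order of the first 3 genes was kept with the mitosis list (UHRF1 0.272, HELLS 0.286, DNMT1 0.666). Within the A101D libraries alone, DNMT3B joined the closest genes, at 0.283 beside UHRF1 (0.292) and HELLS (0.295), with 1.22% of genes closer, while DNMT1 was at 0.689 and TET2 last at 1.15. DNMT3B was thus close to the S-phase profile in A101D and not over both lines, since it was low in MeWo, where the S-phase score was highest. Its closeness within A101D rests on the step between the sets, 3.11-fold for DNMT3B and a median of 4.11-fold for the S-phase list. Any gene with a step of like size would be close there. Within the MeWo libraries alone UHRF1 was no closer than others, with 11.7% of genes closer to the list, beside 6.76% for HELLS, 9.93% for DNMT1, 9.96% for TET3 and 11.6% for TDG. The closeness of UHRF1 over all libraries therefore rests on the A101D sets and the lines. The score itself, the mean centred log2 CPM of the list, was 0.41 to 0.46 in A101D replicates 1-4, −1.75 to −1.65 in 5-8 and 0.51 to 0.77 in MeWo. The libraries fall into separate clusters along the score, so no correlation was computed.

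**Figure D4:**
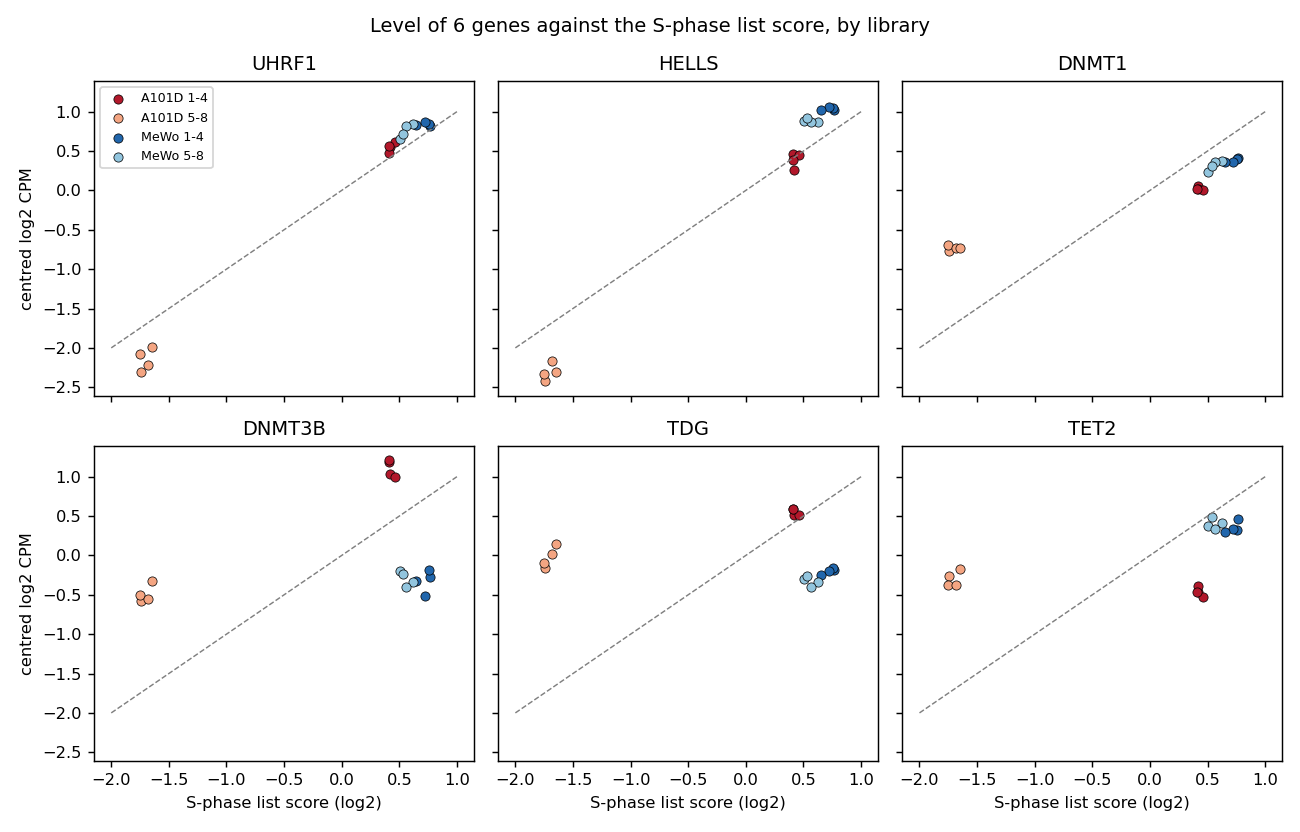
Centred log2 CPM (y axis) of 6 of the genes against the S-phase list score (x axis, log2) in each of the 16 libraries, with the line of equal values dashed. UHRF1 and HELLS run near the line, DNMT1 less steeply, and DNMT3B and TDG are low in MeWo although its score is the highest, at 0.51 to 0.77.

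With the S-phase score as a covariate in the fit over all replicates, the line difference of UHRF1 went from 1.62 ± 0.45 to −0.01 ± 0.05 (adjusted p = 0.799, limma-voom). That of HELLS went from 1.97 to 0.31 (adjusted p = 7.86e-07), and that of DNMT1 from 0.70 to 0.25 (adjusted p = 1.23e-08). The difference of DNMT3B went from −0.60 to −1.58 (adjusted p = 8.75e-19) and that of TDG from −0.52 to −0.88. The other 5 genes kept their direction and stayed past the threshold, with DNMT3A at −0.72, TET1 at −1.22, TET3 at −0.51, TET2 at 0.86 and UHRF2 at 0.26. The score rests mainly on the A101D sets, and what separates these sets cannot be told apart from proliferation in this fit. The score also differs between the lines, at most 0.46 in A101D and at least 0.51 in MeWo, so the covariate can take up part of the line difference. Without the score, the UHRF1 line difference in replicates 1-4 was 0.29.

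Levels of different genes were compared within groups of libraries as TPM (counts divided by exon length and scaled to a common total). The length joins all annotated exons of a gene and can exceed that of the transcripts expressed. It was 10148 bases for HELLS, 9919 for UHRF2, 5145 for UHRF1 and 4630 for DNMT3B. The order of genes and the ratios between genes depend on it. In A101D replicates 1-4 the median TPM was 120 for DNMT1, 65.3 for UHRF1, 29.3 for TDG and 16.1 for UHRF2. DNMT3A (11.9), HELLS (11.8) and TET3 (11.8) overlapped each other, and DNMT3B (7.27), TET2 (5.02) and TET1 (3.44) followed. In A101D replicates 5-8 DNMT1 (81.0) stayed first, and TDG (22.5) and UHRF2 (19.7) came next. UHRF1, at 11.4 TPM, now overlapped DNMT3A (11.7) and TET3 (11.5), and HELLS was last at 2.02. By CPM, without the division by length, HELLS (4.87 to 5.81) lay above DNMT3B (3.06 to 3.64) there. In MeWo DNMT1 (152 TPM) and UHRF1 (78.6) were again the top pair, ahead of UHRF2 (20.1), HELLS (17.6) and TDG (17.0), of which neighbours overlapped, and TET1 (1.54) was last. The TPM ratio of UHRF1 to DNMT1 within a library was 0.513 to 0.573 in A101D replicates 1-4, 0.129 to 0.156 in 5-8 and 0.494 to 0.534 in MeWo. The ratio of UHRF1 to UHRF2 was 3.77 to 4.17, then 0.530 to 0.641, and 3.31 to 4.58 in MeWo. UHRF2 RNA thus exceeded UHRF1 RNA per length in A101D replicates 5-8 and in no other libraries.

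The genes with the most similar profiles were found over the 16 libraries for the 4 members whose log2 CPM had an SD of at least 0.5, among genes of at least 10 CPM, by the same root mean square difference. UHRF1 was closest to NCAPH (0.07), RAD54L (0.08) and UBE2T (0.10), genes of condensin, recombination and the Fanconi pathway. HELLS was closest to GINS2 (0.10) and CDK1 (0.11), which are in the S-phase and mitosis lists, and to the histone gene H3C3 (0.11). DNMT3B was closest to the histone gene H4C6 (0.12), CERT1 (0.12) and CRYL1 (0.17), and TET1 to FUZ (0.10), DNM1L (0.11) and TPI1 (0.11).

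Of 50 other pathway genes, 48 passed the low-count filter, and 24 were higher and 10 lower in MeWo over all replicates, with 14 not past the threshold. Those shares over all tested genes were 38.2% higher and 40.5% lower, and 78.7% in either direction, so 34 of 48 is below the background. Without overlap 26 were lower and 13 higher in A101D replicates 5-8, against 35.9% and 26.6% of all genes. By 1.5-fold 14 were lower and 4 higher, against 16% and 12.9%. The median set difference in A101D was −0.19 on the log2 scale, against −0.06 over all tested genes. Of the 9 maintenance partners, 6 were higher and 1 lower in MeWo, against the same 38.2% and 40.5%. In A101D replicates 5-8, 6 of the 9 were lower and 1 was higher without overlap, against 35.9% and 26.6% of all genes. CDCA7, which recruits HELLS to chromatin, had 29.7 to 33.2 CPM in A101D replicates 1-4, 4.39 to 4.69 in 5-8 and 28.7 to 32.1 in MeWo. Its A101D step of 6.96-fold was near that of HELLS, and its line difference was −0.02 in replicates 1-4 (adjusted p = 0.729, limma-voom) and 2.73 in 5-8. CDCA7L had 52.2 to 56.0, then 10.6 to 15.96 CPM in A101D, and LIG1, the ligase that joins Okazaki fragments and binds UHRF1, had 56.2 to 66.5, then 30.6 to 32.5. In MeWo LIG1 lay at 59.9 to 65.3 CPM, within the range of A101D replicates 1-4. BEND3 was 1.96-fold lower in A101D replicates 5-8. USP7, the deubiquitinase that binds DNMT1 and UHRF1, was 1.22-fold lower, and TRDMT1, an RNA methyltransferase of the same protein family, had overlapping sets.

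Of the 15 tested genes that guide or limit de novo methylation, 6 were higher and 5 lower in MeWo, against 38.2% and 40.5% of all tested genes. ZFP57, a zinc finger protein that protects imprinted methylation, had 23.8 to 26.3 CPM in A101D replicates 1-4, 40.8 to 46.1 in 5-8, and no count in MeWo. Its level was at least 3153-fold higher in A101D with the MeWo libraries together set to 3 counts, a bound for counting error only. NSD2, which writes the H3K36 dimethyl mark that DNMT3A reads, was higher in MeWo (1.35 ± 0.14, adjusted p = 1.06e-07, limma-voom) and 1.72-fold lower in A101D replicates 5-8. ZNF445, another imprint protector, was higher in MeWo by 0.82 ± 0.04 (adjusted p = 7.37e-12). The cofactor DNMT3L had 1 count in all 16 libraries.

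Of the 17 tested genes around demethylation and base excision, 9 were higher and 3 lower in MeWo, against 38.2% and 40.5% of all tested genes. GADD45A, a stress gene linked to active demethylation, had 39.0 to 40.3 CPM in A101D replicates 1-4, 84.1 to 99.1 in 5-8 and 9.75 to 14.2 in MeWo. It was 2.35-fold higher in A101D replicates 5-8, where TDG was lower. CXXC4, which binds TET2, had 2 counts in A101D and 127 in MeWo, a ratio of 63.7 (95% exact interval 17.3 to 532, counting error only). OGT, a partner of the TET proteins, was lower in MeWo (−0.57 ± 0.07, adjusted p = 4.29e-07, limma-voom), and the glycosylase MBD4 was 1.40-fold lower in A101D replicates 5-8. Of the 7 methyl-CpG readers, 3 were higher and 1 lower in MeWo, with 3 not past the threshold, against the same 38.2% and 40.5%. Their median line difference was 0.04. Among the higher ones were ZBTB38 (0.81 ± 0.06, adjusted p = 2.13e-09, limma-voom) and MBD2 (0.78 ± 0.06, 5.76e-10).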

How the data were processed

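Libraries came from a stranded total RNA kit, as the labels' protocols say. For each line the authors deposited unnormalized whole-number counts, taken over exons per the file headers, in which every cell joins an Ensembl identifier and its count. The submitters' processing notes name Trimmomatic 0.39-1, STAR 2.7.1a, featureCounts 2.0.0 and GRCh38. For annotation release and strandedness of counting, the sources used here give nothing, so reads of overlapping genes could belong to either. Symbols matched 60357 of 60676 identifiers, and GENCODE v29 gave exon lengths for 58503.

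Counts were scaled by TMM factors (trims 0.3 and 0.05). Genes with at least 0.298 CPM in 8 libraries and 15 counts in all were fitted with limma 3.58.1 in R 4.3.3 (voom, robust empirical Bayes, Benjamini-Hochberg, threshold 0.05), over the lines and over 4 means of line and replicate set. Log2 CPM used a prior count of 2. The fit was tested on simulated data. A quasi-likelihood count test had been named for columns that pass as counts. The joined cells do not, so limma-voom took its place.

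The members, lists and replicate sets were chosen with earlier results of these data known. Named in the text are all 10 members, MKI67, PCNA, MCM2 and CCNB1, the 3 genes of each partner list with the largest called line difference, and LIG1, CDCA7, TRDMT1, USP7, OGT, GADD45A, MBD4 and DNMT3L. Some genes that this rule takes are not reported here. The nearest 3 genes were taken for members with an SD of at least 0.5. Alternatives were other scaling factors and filters, limma-trend, covariates, the replicate block and leaving out libraries. Upper-quartile factors for the sets within a line were added after seeing the data. The most similar pair of libraries had a chi-square of 1.97 per degree of freedom, and none was treated as a duplicate.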

Additional observations from a re-analysis of the deposited data

Results flagged for a closer look

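For 7 of the 10 genes the line difference in replicates 5-8 differed from that in replicates 1-4 by the interaction term of the limma-voom fit (adjusted p under 0.05). On the log2 scale the difference was 2.61 for UHRF1, 2.56 for HELLS, 1.64 for DNMT3B, 0.69 for DNMT1, 0.47 for TET1, 0.45 for TDG and 0.19 for DNMT3A. All 7 were more positive in replicates 5-8. This term equals the set difference in MeWo minus that in A101D, for sets that no label names and that were chosen with earlier results known. No library stood apart from its group for any of the 10 genes by Dixon's test in the 60 groups checked, where chance would flag 3 if the groups were separate. They are not, since groups of 4 libraries lie within those of 8. Over all A101D libraries, a large step between the sets leaves this test little chance to flag a single library.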

How the results depend on the processing

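Upper-quartile factors moved the median line difference of all tested genes from −0.02 to 0.48 (log2), to 0.44 in replicates 1-4 and to 0.50 in 5-8, and the share of called genes that were higher in MeWo from 48.5% to 69.4% (46.4% to 68.5% and 49.9% to 67.8% within the sets). TET3 then turned to 0.15 over all replicates, 0.0769 in replicates 1-4 and 0.22 in 5-8, and in 5-8 DNMT3A turned to 0.00194 and TDG to 0.19 (TET3 and TDG past the threshold in 5-8, adjusted p = 0.000237 and 0.00295), each still below the median of all genes in that setting. DNMT3A (−0.09) and TDG (−0.02) over all replicates no longer passed. The difference between sets turned for UHRF2 with median-of-ratios factors (−0.00188) and total counts (−0.0265), and the share of positive calls of that difference went from 58.8% to 50% and 47.4%. DNMT3A lost that difference under these factors (0.11 and 0.09), with upper-quartile factors (0.18) and with no low-count filter (0.19). DNMT3B in replicates 5-8 passed with upper-quartile factors (0.69). UHRF1 turned to −0.0129 with the S-phase score as covariate, which also moved HELLS to 0.31 and DNMT3B to −1.58. The count of genes past the threshold over all replicates ran from 12341 (filter at 1 CPM) to 22415 (no low-count filter) around 15155. The 128 genes at least 1.5-fold higher without overlap in MeWo replicates 5-8 became 152 to 236 when 1 library was left out, with 236 without MeWo replicate 4 and 219 without replicate 5. The 97 lower genes became 111 to 136. Sets of fewer libraries overlap less easily, so such rises follow at least in part from the rule. The edgeR and DESeq2 alternatives were not run, since joined cells do not pass as counts.

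The replicate numbers shared by the lines did not pair the libraries: deviations of same-numbered libraries from their line means correlated at 0.05 to 0.18, and at −0.03 to 0.09 from the means of line and set, with 3 of 8 libraries closest to their own number. With the number as a replicate block, 15291 genes passed over all replicates, 15623 in replicates 1-4, 16291 in 5-8 and 10068 for the difference, against 15155, 15616, 16291 and 10032. Among the 10 genes the block changed 1 call, DNMT3B over all replicates (−0.73, adjusted p = 0.027). DNMT3B also passed there with total counts (−0.63, 0.0443). DNMT3B, at about 3 to 11 CPM, and TET1 had the fewest counts and the largest standard errors within the sets.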

Other observations

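The summed TPM of DNMT1, DNMT3A and DNMT3B was 135 to 143 in A101D replicates 1-4, 93.8 to 99.8 in 5-8 and 154 to 175 in MeWo, while that of TET1, TET2 and TET3 was 19.4 to 21.5, 19.6 to 21.9 and 17.5 to 21.0. The ratio of the sums within a library was 6.53 to 7.30 in A101D replicates 1-4, 4.41 to 4.79 in 5-8 and 7.94 to 8.77 in MeWo, 3 ranges that did not overlap. DNMT1 made up most of the first sum, with 124 of 143 TPM in A101D replicate 1, 81.0 of 94.7 in A101D replicate 5 and 163 of 175 in MeWo replicate 5. The ratio therefore mainly restates DNMT1, and DNMT3A was lower in MeWo. The TET sums of the lines overlapped, with TET2 higher in MeWo and TET1 and TET3 lower there.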
